A study of Mus musculus with 6 samples.

Results

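The EGF receptor family examined here comprises 10 genes, taken by symbol from the 22442 genes of an RNA-seq table: the receptors Egfr, Erbb2 and Erbb3, the ligands Areg, Ereg, Hbegf, Tgfa, Btc and Epgn, and the sheddase Adam17. A mean level of at least 0.5 FPKM over all libraries was met by 9 of the 10 members, and by 11723 genes in all, and these were tested. The 6 libraries were poly(A) RNA of mouse renal tubular epithelial cells (mTECs), 3 labelled LPS and 3 labelled LPSKD. The cells labelled LPS had received a negative control transfection and those labelled LPSKD an siRNA (the study's methods describe an shRNA) against Stat3, and both groups were then exposed to lipopolysaccharide, the endotoxin of Gram-negative bacteria, at 20 μg/ml for 24 h. The labels describe magnetically sorted cells kept in culture and the study's methods an immortalised line. No library of cells without lipopolysaccharide was part of the comparison, so the values show what differed between the labels under lipopolysaccharide and not a response to it. Only the labels mark the replicates as separate samples, and p-values therefore measure the spread between these libraries.

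EGF family ligands are made as membrane-anchored precursors. Metalloproteases of the ADAM family, Adam17 foremost, cut them free, and the released domain binds Egfr, which pairs with itself or with Erbb2 or Erbb3 and signals through the Ras and PI3-kinase pathways. In the kidney the receptor is known for its part in tubular regeneration after acute injury, and for promoting fibrosis when it stays active. RNA levels do not report shedding, receptor phosphorylation or protein.

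The table gives FPKM, fragments scaled to the length of the gene, in nearly all genes above 0 its coding length, and to the total of the library. The libraries held 24084827 to 25422171 fragments. Stat3, the gene named as silenced, had 34.6, 31.4 and 35.2 FPKM under the LPS label and 30.8, 35.2 and 34.3 FPKM under the LPSKD label. Its groups overlapped, with a log2 fold change of -0.01 (95% confidence interval -0.17 to 0.14, limma adjusted p = 0.944), so the groups are named here by their labels alone. The study reports knockdown of Stat3 in mTECs by real-time PCR and western blot, without saying whether in the cells of these libraries. Epithelial markers were abundant, with Epcam at 291 to 331 FPKM and Cdh1 at 131 to 138 FPKM, while the nephron segment markers Slc34a1 and Umod were at 0 in every library. Of the 11 tubular markers tested, 5 (45.5%) passed at an adjusted p under 0.05 in limma, against 3.23% of all 11723 tested genes: Pax2 (log2 fold change 0.60, adjusted p = 0.00101), Pax8 (0.39, 0.00844), Cdh16 (0.27, 0.00935) and Aqp1 (0.93, 0.0174) rose and Krt18 (-0.15, 0.0319) fell. The 6 immune markers summed to 14.4 to 17.1 FPKM under the LPS label and 10.5 to 14.4 FPKM under the LPSKD label, most of it Cd68, with Ptprc at 0.372 to 1.08 FPKM and none of the 3 tested past the threshold in limma (1 at an unadjusted p under 0.05, 0 under voom weights). Fibroblast markers summed to 56.0 to 67.4 and 41.4 to 63.8 FPKM (0 of 7 past it) and endothelial markers to 2.31 to 4.29 and 2.71 to 4.46 FPKM (0 of 2), with none at an unadjusted p under 0.05 or called under voom weights, while both podocyte markers were at 0. The part of these markers in the members' differences was not tested. In such bulk RNA, fewer cells expressing a gene and less RNA per cell cannot be told apart.

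The ligand Areg was the member that differed, lower by 0.64 on the log2 scale in the libraries labelled LPSKD. The other ligands Ereg, Hbegf and Btc and the receptors Egfr and Erbb3 had groups that did not overlap but missed the threshold, while Tgfa, Erbb2 and Adam17 overlapped and Epgn was close to undetected. At an adjusted p under 0.05, 1 of the 9 tested members was called, and it was lower, against 3.23% of all tested genes (1.66% lower and 1.57% higher). The groups did not overlap for 6 of the 9, against 23.8% of all tested genes: 4 ligands were lower in every library labelled LPSKD (13.2% of all genes were) and 2 receptors higher (10.6% of all genes were). An unadjusted p under 0.05 was reached by 6 of the 9 members and by 17.6% of all tested genes. The median log2 fold change was -0.26 over the 5 tested ligands, 0.12 over the 3 receptors and -0.01 over all tested genes.

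**Figure D1:**
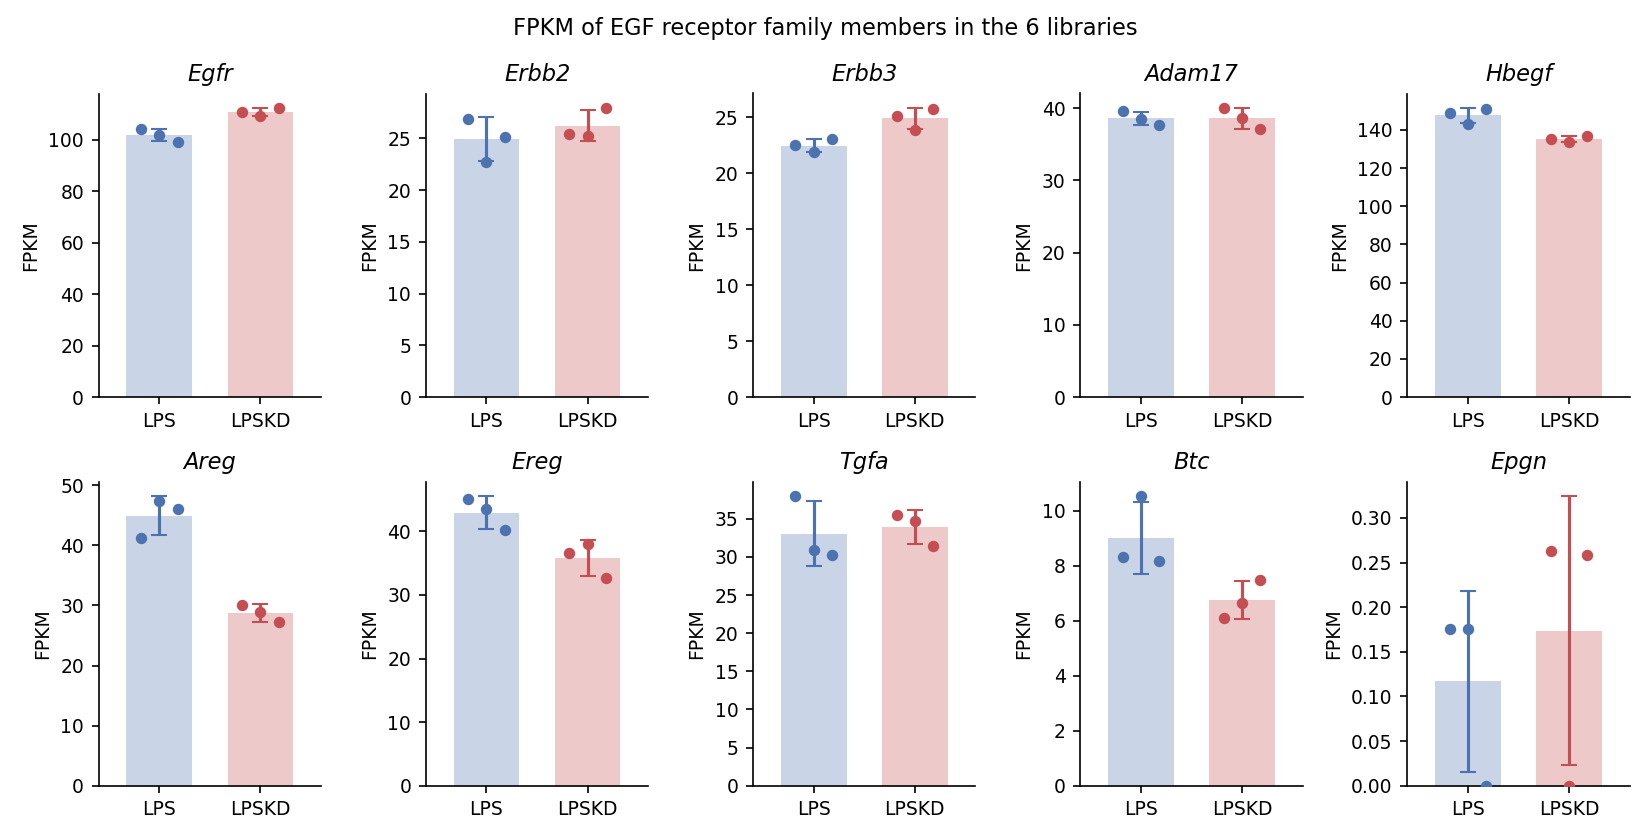
FPKM of each member in the 6 libraries (points), with the group mean (bar, from 0) and SD (line) for the 3 libraries labelled LPS (blue) and the 3 labelled LPSKD (red), each panel on its own scale. Areg stands between 41.3 and 47.5 FPKM in the libraries labelled LPS and between 27.2 and 30.1 FPKM in those labelled LPSKD, while the points of Tgfa, Erbb2 and Adam17 overlap.

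Areg encodes amphiregulin, a low-affinity Egfr ligand made by injured epithelia. The gene (ENSMUSG00000029378) lies at chr5:91139599-91148432 on the plus strand (GRCm38, GENCODE M21). Its promoter is shown because Areg was the called member, and that of Btc as the other ligand of the same chromosome 5 cluster with a tested change and a promoter in the RefSeq set used (GRCm38.p6; 7 of the 10 members had one). Both run from 250 bases before to 50 bases after the start, Areg at chr5:91139349-91139648 on the plus strand and Btc at chr5:91402945-91403244 on the minus strand. Capitals mark a cyclic AMP response element (CRE, TGACGTCA) and a TATA box (TATAAA).
Areg: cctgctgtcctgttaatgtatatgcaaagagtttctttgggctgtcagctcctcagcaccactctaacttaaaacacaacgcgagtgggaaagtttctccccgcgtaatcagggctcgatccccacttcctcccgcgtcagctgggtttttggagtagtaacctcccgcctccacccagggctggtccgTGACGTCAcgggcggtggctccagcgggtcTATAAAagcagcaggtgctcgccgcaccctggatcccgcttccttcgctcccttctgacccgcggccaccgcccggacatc
Btc: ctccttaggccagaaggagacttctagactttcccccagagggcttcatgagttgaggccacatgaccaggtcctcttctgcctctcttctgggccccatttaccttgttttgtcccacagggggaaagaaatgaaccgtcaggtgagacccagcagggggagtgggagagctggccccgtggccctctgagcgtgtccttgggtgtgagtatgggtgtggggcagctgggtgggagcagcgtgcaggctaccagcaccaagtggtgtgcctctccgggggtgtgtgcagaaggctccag
The CRE of Areg begins 61 bases and its TATA box 31 bases upstream of the start (positions -61 and -31). On either strand, the CRE letters occur in 1.79% of 32851 mouse promoters of this length and the TATA letters in 13.6%. The letters of an AP-1 site (TGANTCA, in 7.81% of promoters) and of a STAT site (TTCNNNGAA, in 8.30%) had no match in the promoters of Areg, Btc, Egfr, Erbb2, Tgfa, Adam17 or Epgn. Of these, Epgn alone had a further match, a TATA box at position -86. A match or its lack describes the letters in this window, not the binding of a factor.

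Areg was measured at 41.3, 47.5 and 46.0 FPKM under the LPS label and at 30.1, 28.9 and 27.2 FPKM under the LPSKD label. Every library labelled LPSKD lay below every library labelled LPS, with a gap wider than the spread inside either group. The mean went from 44.9 ± 3.22 to 28.8 ± 1.43 FPKM (SD, n = 3 each). On the log2 scale Areg fell by 0.64 (SE 0.07, 95% confidence interval -0.79 to -0.49, limma adjusted p = 0.00157), and its level fell by 35.9% (interval -42.2% to -28.8%). By p-value Areg was number 57 of the 11723 tested genes, and 3.40% of them had a larger absolute fold change. The exact two-sided permutation test gave p = 0.1, the smallest that 3 libraries against 3 allow. The values rest on 766, 880 and 838 fragments against 560, 519 and 516. Counting error alone corresponds to a coefficient of variation of 3.48% in the first group and 4.34% in the second, and the observed ones were 7.16% and 4.99%. The call was kept in each of the 16 alternative fits, with log2 fold changes between -0.70 and -0.60.

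Ereg, which encodes epiregulin, a ligand of Egfr and Erbb4, is the neighbour of Areg (ENSMUSG00000029377, chr5:91074622-91093646, plus strand). It had 45.1, 43.6 and 40.2 FPKM under the LPS label and 36.7, 38.0 and 32.7 FPKM under the LPSKD label. The highest library labelled LPSKD was close below the lowest labelled LPS, so the groups were apart by less than their own spread. The log2 fold change was -0.26 (95% confidence interval -0.42 to -0.10), from 43.0 ± 2.53 to 35.8 ± 2.76 FPKM, and did not pass the threshold (limma adjusted p = 0.0962). It passed under none of the 16 alternatives, whose adjusted p in limma ran from 0.0630 to 0.244.

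Btc encodes betacellulin, another ligand of Egfr and Erbb4 (ENSMUSG00000082361, chr5:91357261-91402994, minus strand). Its 8.32, 10.5 and 8.17 FPKM under the LPS label compare with 6.11, 6.65 and 7.48 FPKM under the LPSKD label. All values of the second group were lower, but the first was spread out by replicate 2. Betacellulin rested on 81 to 139 fragments a library, and counting error alone gives a coefficient of variation of 9.19% and 10.6%. The log2 fold change of -0.41 (95% confidence interval -0.70 to -0.12) had a limma adjusted p of 0.146. A difference of the size seen for Areg lies within that interval.

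Hbegf, the gene of heparin-binding EGF-like growth factor, was the ligand with the highest level (ENSMUSG00000024486, chromosome 18). It had 149, 143 and 151 FPKM under the LPS label and 135, 134 and 137 FPKM under the LPSKD label. The groups were apart and both were tight, resting on 2011 to 2309 fragments a library. The mean went from 148 ± 3.95 to 135 ± 1.43 FPKM, a log2 fold change of -0.13 (95% confidence interval -0.21 to -0.05, limma adjusted p = 0.111).

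Tgfa encodes transforming growth factor alpha, a high-affinity Egfr ligand (ENSMUSG00000029999, chr6:86195223-86275719, plus strand). Unlike those of Areg, Ereg, Hbegf and Btc, its groups overlapped, and it had no clear direction. Its values were 37.9, 31.0 and 30.3 FPKM under the LPS label and 35.6, 34.8 and 31.4 FPKM under the LPSKD label. Replicate 1 labelled LPS was the highest of all 6 and the other two of its group were the lowest. The log2 fold change was 0.04 (95% confidence interval -0.17 to 0.25, limma adjusted p = 0.866), and without that library it was 0.14. Epgn, the gene of epigen (ENSMUSG00000035020, chr5:91027464-91035215, plus strand), had 2, 2 and 0 fragments against 3, 0 and 3. No library exceeded a floor of 3 fragments, and no fold change is given.

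**Figure D2:**
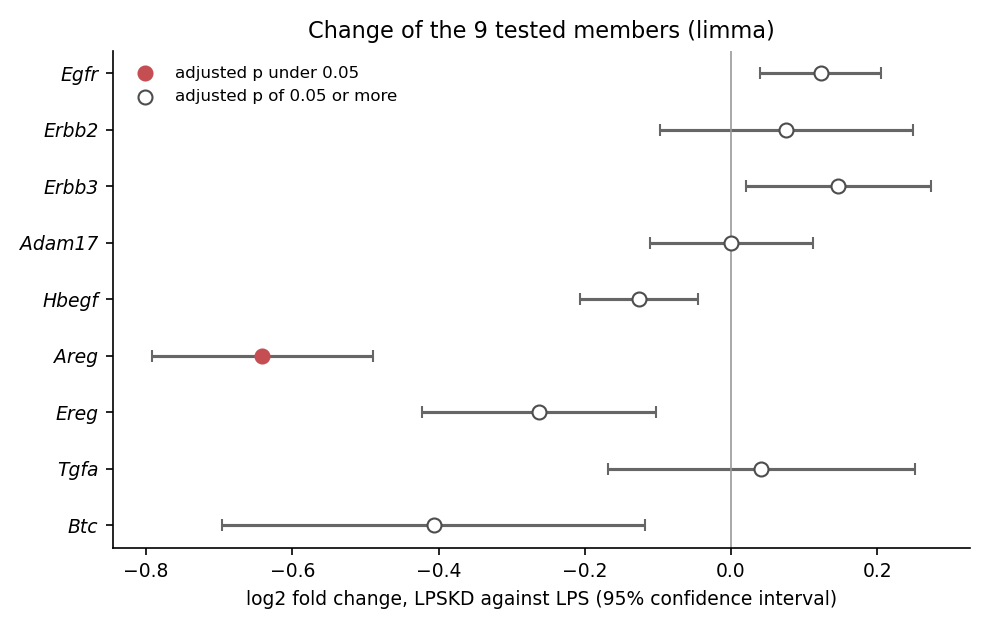
Log2 fold change (libraries labelled LPSKD against those labelled LPS) of the 9 tested members with its 95% confidence interval, from limma. Areg, at -0.64, is the filled point, with an adjusted p under 0.05, and the intervals of Tgfa, Erbb2 and Adam17 include 0.

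Egfr, the receptor that all 6 ligands bind, had 104, 102 and 99.3 FPKM under the LPS label and 111, 109 and 112 FPKM under the LPSKD label (ENSMUSG00000020122, chr11:16752203-16918158, plus strand). The libraries labelled LPSKD were all higher, by a small margin. With 9028 to 10621 fragments a library it was the most deeply counted member. The log2 fold change was 0.12 (95% confidence interval 0.04 to 0.21, an increase of 8.87%), with a limma adjusted p of 0.127. A fit of the recovered fragment counts with limma's voom weights gave an adjusted p of 0.0481, and the other 15 alternatives gave 0.0978 or more.

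Erbb3, a receptor with little kinase activity that recruits PI3-kinase, had 22.5, 21.9 and 23.0 FPKM against 25.1, 23.9 and 25.7 FPKM (ENSMUSG00000018166, chr10:128567523-128589652, minus strand). It was higher in every library labelled LPSKD, with a log2 fold change of 0.15 (95% confidence interval 0.02 to 0.27, limma adjusted p = 0.224). Erbb2, the partner receptor without a known ligand of its own, had 26.9, 22.7 and 25.1 FPKM against 25.4, 25.2 and 27.9 FPKM (ENSMUSG00000062312, chr11:98412470-98437716, plus strand). Its groups overlapped, and the log2 fold change of 0.08 had an interval of -0.10 to 0.25 (limma adjusted p = 0.670). The span of Erbb2 overlaps that of the coding gene Mien1, and the span of Adam17 that of the coding gene Iah1. If they share counted stretches, which was not examined, fragments there may be counted to either gene.

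Adam17, the sheddase of amphiregulin, epiregulin, heparin-binding EGF-like growth factor and transforming growth factor alpha, had near equal means in both groups (ENSMUSG00000052593, chr12:21323509-21373632, minus strand). It had 39.6, 38.4 and 37.7 FPKM under the LPS label and 40.0, 38.7 and 37.1 FPKM under the LPSKD label. The groups covered the same range, and the 95% confidence interval of the log2 fold change, -0.11 to 0.11 (limma adjusted p = 0.998), leaves out a change of the size seen for Areg.

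Per length, the ligand and receptor levels stood in a fixed order at the top and the bottom and exchanged places in the middle. Averaged over the 6 libraries, Hbegf (141 ± 7.27 FPKM) was above Egfr (106 ± 5.27 FPKM), and each was above every other member in all 6 libraries. They were also high among all genes, with 8.22% of tested genes above Hbegf and 11.4% above Egfr. Next came Ereg (39.4 ± 4.58 FPKM), Adam17 (38.6 ± 1.09 FPKM), Areg (36.8 ± 9.14 FPKM) and Tgfa (33.5 ± 3.06 FPKM). Neighbours in that order had overlapping ranges over the 6 libraries, a spread that includes the difference between the labels. Areg moved most among them: it was above Adam17 and Tgfa in the 3 libraries labelled LPS and below both in the 3 labelled LPSKD. Ereg, too, was above Adam17 in the 3 libraries labelled LPS and below it in the 3 labelled LPSKD. Erbb2 (25.5 ± 1.79 FPKM) was above Erbb3 (23.7 FPKM, range 21.9 to 25.7 FPKM) in each of the 6 libraries, although their ranges overlapped. Btc (7.87 ± 1.55 FPKM) and Epgn (0.145 ± 0.119 FPKM) were the lowest.

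The 6 ligands summed to 282, 276 and 276 FPKM under the LPS label and to 244, 242 and 236 FPKM under the LPSKD label. The sum was lower in every library of the second group (278 ± 3.39 against 241 ± 4.28 FPKM). Areg supplied 16.2% ± 1.34 of it in the first group and 11.9% ± 0.393 in the second, without overlap. Hbegf supplied 53.2% ± 1.45 and 56.2% ± 1.52, also without overlap, a higher share of a lower sum although its own level was lower. The shares of Ereg, Tgfa and Btc overlapped between the groups. The 3 receptors summed to 149 ± 3.86 and 162 ± 3.78 FPKM, with Egfr supplying 68.2% ± 1.17 and 68.4% ± 0.701. The ratio of Hbegf to Egfr was 1.43, 1.41 and 1.52 under the LPS label and 1.22, 1.22 and 1.22 under the LPSKD label. Neither gene passed the threshold on its own in the reported fit. Ratios of Areg to Ereg, Hbegf, Tgfa and Egfr were also apart. Those of Areg to Btc and of Egfr to Erbb2 or Erbb3 overlapped between the groups. These sums, shares and ratios are descriptions of the values above and were not tested separately.

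**Figure D3:**
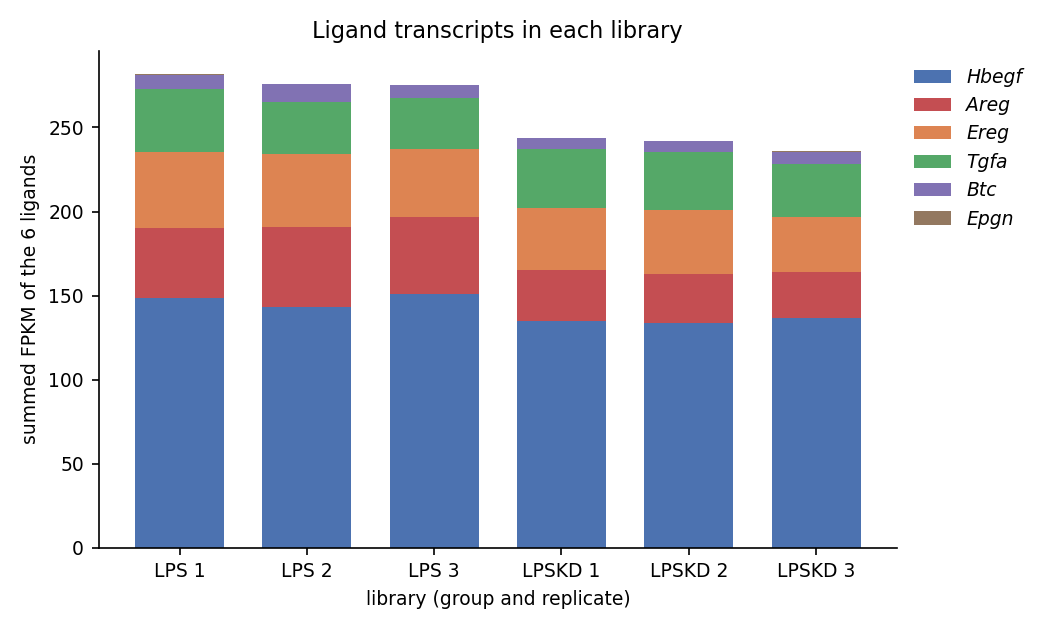
Summed FPKM of the 6 ligands in each library, stacked by ligand (Epgn is too low to be seen). The bars labelled LPS reach 276 to 282 FPKM and those labelled LPSKD 236 to 244 FPKM, with the Areg segment shorter in the latter.

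Among the other genes of the family, Nrg1 was present and the rest were sparse or at 0. Erbb4 had no fragment in any library, which limits its level to 0.0314 FPKM at a floor of 3 fragments, and the same held for Nrg3 (0.0576 FPKM). Egf itself had 16 to 54 fragments a library, at 0.429 ± 0.225 and 0.265 ± 0.011 FPKM, and Nrg4 had 0 to 4. Nrg1, a ligand of Erbb3 and Erbb4, was present at 38.1 ± 2.93 and 37.6 ± 1.36 FPKM (log2 fold change -0.02, limma adjusted p = 0.928), which is near the level of Areg. Nrg2 was at 1.68 ± 0.195 and 1.94 ± 0.151 FPKM (limma adjusted p = 0.642).

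Areg, Ereg, Epgn and Btc lie within 375.5 kb of chromosome 5, and the start of Areg is 46.0 kb from the end of Ereg. In the window of 500 kb on each side of this cluster, 12 of 16 genes were tested. Of these, 5 were called higher and 1 lower, against 1.57% and 1.66% of all tested genes. The gene called lower was Areg. The ligands Ereg and Btc, the tested genes next to it on either side, had the negative changes given above that did not pass the threshold. Upstream, the neutrophil-attracting chemokine genes Cxcl5, Ppbp, Cxcl1 and Cxcl2 were higher by 0.80, 1.23, 0.42 and 0.54 on the log2 scale (limma adjusted p = 1.18e-04, 2.44e-05, 0.00162 and 9.20e-05). Each kept its call in all 16 alternatives. The chemokine gene Pf4, also upstream, was not called (1.47, limma adjusted p = 0.336, groups overlapping). Cxcl3 and Cxcl15, in the same stretch, were under the filter, with 1 to 4 and 0 to 1 fragments a library. Parm1, on the far side of Btc, was higher by 1.11 (limma adjusted p = 0.0434) and kept its call in 8 of the 16, losing it with no filter, with no trend, with the replicate block, and without LPS replicate 1 or 3 or any one library labelled LPSKD (adjusted p in limma up to 0.171). Mthfd2l, between Cxcl2 and Epgn, had a change of -0.07 (limma adjusted p = 0.659). Afm and Rassf6, upstream of the chemokine genes, were not called either (-0.74 and 0.15, limma adjusted p = 0.540 and 0.382).

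**Figure D4:**
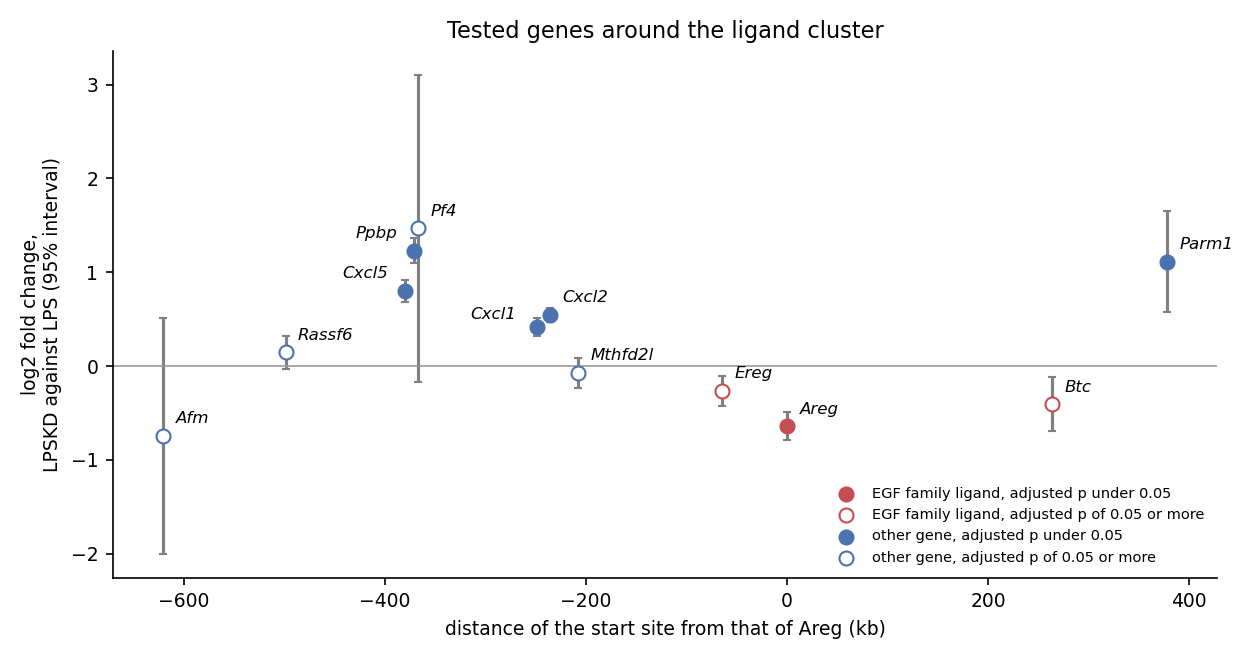
Log2 fold change with its 95% confidence interval (y) of the 12 tested genes in and around the chromosome 5 ligand cluster, against the distance in kb of each start site from that of Areg (x). Filled points had an adjusted p under 0.05: Areg is below 0, and Cxcl5, Ppbp, Cxcl1, Cxcl2 and Parm1 are above it.

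Around the family, 111 genes of shedding, signal transmission, receptor braking, the transcriptional response and other inputs are reported, of which 106 were tested and 5 called, 2 lower and 3 higher. That is 4.72%, beside 3.23% of all tested genes, and the median log2 fold change was -0.01 in both. Over all tested genes, 17.6% had an unadjusted p under 0.05, and voom weights called 582 of 11486. Among 14 shedding genes, 3 had an unadjusted p under 0.05, and 2 passed, as 2 did under voom weights (Adam8 and Adam12). Adam8, a metalloprotease mostly of leukocytes, rose from 12.6 ± 1.37 to 16.8 ± 0.493 FPKM (limma adjusted p = 0.0435). Timp1, a metalloprotease inhibitor, fell from 60.1 ± 1.63 to 51.3 ± 1.26 FPKM (limma adjusted p = 0.0288). The main Adam17 partners Rhbdf1 and Rhbdf2, the iRhoms that carry it to the cell surface, had log2 fold changes of 0.09 and -0.02 (limma adjusted p = 0.578 and 0.912). Adam10, the sheddase of betacellulin and Egf, had -0.03 (limma adjusted p = 0.798).

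Of the 28 adaptors and kinases reported here, 0 passed in limma, 3 had an unadjusted p under 0.05 and 0 passed under voom weights. Those 3 were Src and Map2k2, lower in every library labelled LPSKD, and Sos1, higher in every one. Their log2 fold changes were -0.15, -0.15 and 0.18 (limma adjusted p = 0.121, 0.129 and 0.220). The adaptor Grb2, which links the receptor to Ras, had 133 ± 2.82 and 131 ± 5.16 FPKM (log2 fold change -0.02, limma adjusted p = 0.821). The kinase Mapk3, at the end of that cascade, had a log2 fold change of 0.07 (limma adjusted p = 0.499).

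Of 28 brakes on the receptor and its kinases, 2 passed, in opposite directions, both of them MAP kinase phosphatases. Of the 28, 7 had an unadjusted p under 0.05, beside 17.6% of all tested genes. All of these 7 but Dusp6 were lower under the LPSKD label, and the median log2 fold change of the list was -0.07. Dusp6 rose from 106 ± 2.28 to 131 ± 4.38 FPKM (log2 fold change 0.31, limma adjusted p = 0.00438). Dusp4 fell from 94.5 ± 6.39 to 77.9 ± 2.28 FPKM (log2 fold change -0.28, limma adjusted p = 0.0355). Errfi1, the feedback inhibitor that binds the Egfr kinase domain, had 89.5 ± 2.77 and 81.6 ± 1.70 FPKM, with a log2 fold change of -0.13 that did not pass (limma adjusted p = 0.134). Among 19 tested response genes 1 was called: Plaur, the urokinase receptor, rose from 155 ± 4.90 to 178 ± 4.16 FPKM (limma adjusted p = 0.0313). An unadjusted p under 0.05 was reached by 6 of the 19, beside 17.6% of all tested genes, and 2 were called under voom weights (Plaur and Ptgs2). The AP-1 subunit Fos had 6.44, 6.51 and 7.03 FPKM under the LPS label and 5.02, 4.33 and 5.17 FPKM under the LPSKD label, groups apart, with a log2 fold change of -0.46 that did not pass (limma adjusted p = 0.0719). The immediate early gene Egr1 (0.14) and the AP-1 subunit Fosl1 (-0.16) did not pass either. Other pathways that can act on Egfr signalling gave 17 tested genes, which were receptors, ligands and the adaptor Myd88. Of these 17, 0 passed in limma, 1 had an unadjusted p under 0.05 and 0 passed under voom weights. Tlr4, the lipopolysaccharide receptor, had a log2 fold change of 0.06 (limma adjusted p = 0.718). Dusp6 kept its call in 15 of the 16 alternatives, and Adam8, Timp1, Dusp4 and Plaur in 7 or 8 each, with adjusted p in limma up to 0.166. None of these 4 was called with no trend, with the replicate block, without LPS replicate 3 or without any one library labelled LPSKD.

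**Figure D5:**
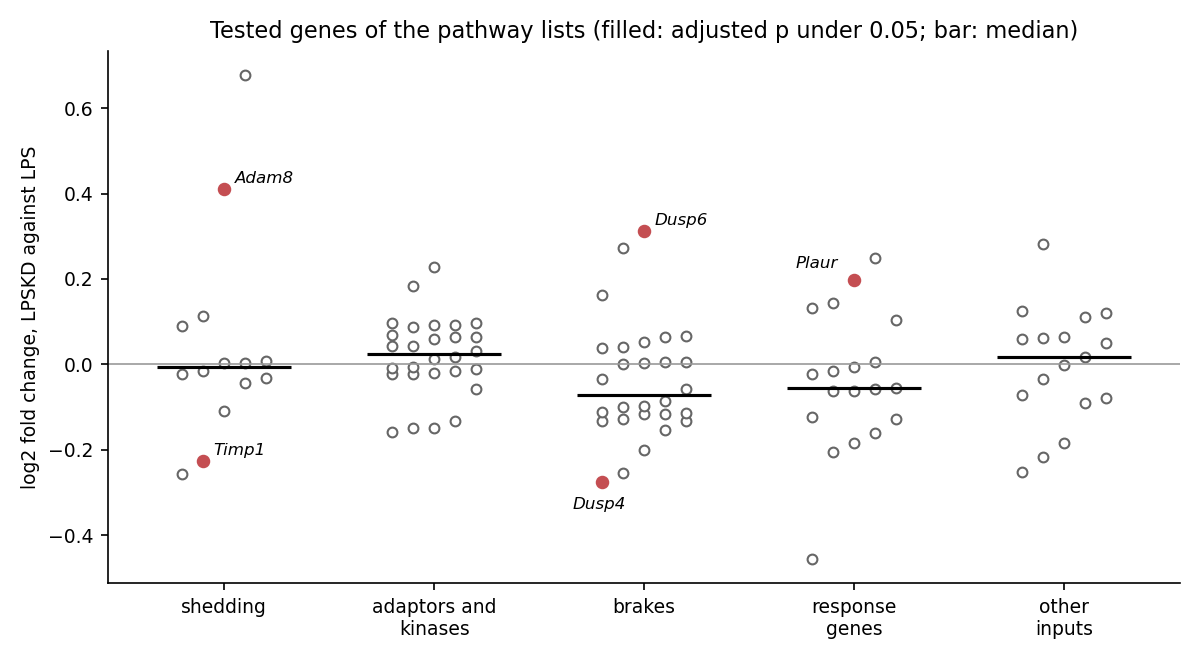
Log2 fold change of each tested gene reported from the 5 pathway lists (points, jittered sideways), with the list median as a bar. The 5 filled points (Adam8, Timp1, Dusp4, Dusp6 and Plaur) had an adjusted p under 0.05, and the medians lie within 0.1 of 0.

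The genes whose levels over the 6 libraries ran most like Areg were Herc6, Krt20 and Tor3a, by the root mean square difference of centred log2 levels (0.06, 0.07 and 0.07) among 11033 genes. Only 11 genes were within 0.1 of Areg. For Egfr the nearest were Rnf19b, Fam192a and Dusp1 (0.01, 0.02 and 0.02), with 4210 genes within 0.1. The measure is not scaled to the size of a change, and for a change as small as that of Egfr it also takes in genes with nearly flat levels.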

How the data were processed

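The 3 mTEC libraries labelled LPS were compared with the 3 labelled LPSKD (RNA-seq). The authors deposited 1 table of FPKM values, with 1 column a library and no pooling. The submitters' processing notes name HISAT2 2.0, StringTie 1.3.0 and Bowtie 0.12.2 and the builds mm8 and GRCh38.p13, without roles. Which build made the FPKM values is not given in the sources used here. Of 22442 Ensembl identifiers, 22399 matched a symbol in GENCODE M21 (GRCm38), from which coordinates are taken. FPKM values of 16455 of 16837 genes above 0 (97.7%) corresponded to whole fragments in all 6 libraries (within 0.0005 fragments) at their coding length plus at most 10 bases. With library totals raised by 0.1%, 3.21% did. The fragments given here were recovered in this way, with totals of 24084827 to 25422171 a library.

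FPKM values were tested as log2(FPKM + 0.1) in genes with a mean of at least 0.5 FPKM, by limma 3.58.1 with a mean-variance trend (R 4.3.3) and Benjamini-Hochberg adjustment over 11723 genes at a threshold of 0.05. Fold changes are on that scale and understate low genes. Genes under the filter were fitted among all genes above 0. The two-sided permutation test over the 20 assignments of labels was exact. The script was tested on simulated data. Intervals come from limma on the FPKM values and rest on the spread between libraries. Floors come from fragments and cover counting error only. Alternatives were pseudocounts of 1 and 0.01, filters at 1, 0.1 and none, quantile normalization, median centring, no trend, the replicate number as a block, leaving out each library, and limma's voom on fragments. The genes named are the members, called genes of the lists, genes on chromosome 5 near the cluster and the 3 genes most like Areg and Egfr. Some list genes that were not called were named after their values were seen. The members and lists were chosen with earlier results of these data known. Sequences are RefSeq's. Some list genes are not reported here. The ChIP-seq samples of the study were not analysed here.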

Additional observations from a re-analysis of the deposited data

How the results depend on the processing

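The call of Areg was made under all 16 alternatives (limma adjusted p 2.75e-04 to 0.0244). The 2 members past the threshold under voom, against 1 otherwise, were Areg and Egfr. Adam17, at a log2 fold change of 0.00, turned to negative values: -0.0030 under quantile normalization, -0.000045 under voom, and -0.025 at the lowest without LPSKD replicate 1 (range -0.025 to 0.028 with one library left out, also negative without LPS replicate 2 or 3 or LPSKD replicate 2). Tgfa turned to -0.0016 and -0.018 without LPS replicate 2 and 3, in a range up to 0.144 with one library left out. Neither was near the threshold. The other members kept their direction. Of all genes, 379 passed in the reported fit, 140 without the trend, 213 with the replicate block and 582 of 11486 under voom, and 158 to 357 with one library left out (158 without LPS replicate 3 and 176, 190 and 168 without LPSKD replicates 1, 2 and 3). Of the pathway list genes 5 passed, 0 without the trend, 3 without a filter, 1 with the replicate block (Dusp6) and 1 to 5 with one library left out (1 without LPS replicate 3 or any one library labelled LPSKD, 2 without LPS replicate 2). The cause was not tested. Libraries with the same number did not deviate together (correlations -0.016, -0.004 and -0.043 between their deviations from the group means). Between libraries of different numbers the correlations ran from -0.043 to 0.058. With 3 libraries a group, these values show no pairing by number but cannot settle it. The replicate block changed no call among the members. Fragment numbers limit Btc and Epgn most.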
